A study of Mus musculus with 6 samples.

Results

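The wide open domains of ATDC5 chromatin are stretches where a single accessible peak of 1500 bases or more was listed in every library of the time course. ATDC5 is a mouse line of chondrocyte precursors. ATAC-seq marks open chromatin by the insertions of the Tn5 transposase, and overlapping insertions are merged by a peak caller into intervals. All listed peaks of 1500 bases or more on chromosomes 1 to 19 and X were taken, overlapping ones were merged into domains, and a domain was kept when such a peak overlapped it in all 6 lists. This left 1223 domains of 7117 that held a wide peak in at least 1 list. All listed peaks of any width formed 439537 merged regions. Width and presence in every list chose the members, so their widths are given as a description and were not tested.

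The 6 libraries form 3 groups of 2, which the labels describe as independent biological replicates. Day0 cells are labelled as the control, and Day3 and Day10 cells as differentiated for 3 and 10 days. All were spotted as dense droplets, and the differentiation medium held ascorbate-2-phosphate and beta-glycerophosphate. No genetic change is named in the labels, and all groups share the 1 cell line. The labelled cell type could not be set against marker genes, because no annotation of the build of the lists was used here.

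Most accessible sites in a mammalian genome are short gaps between nucleosomes, made where transcription factors bind. Longer open stretches are known from promoters rich in CpG dinucleotides, from genes transcribed at a high rate, and from dense clusters of enhancers. Repeated sequences that are collapsed in the assembly can also appear as wide, high peaks in such assays. Which of these classes each domain belongs to was not tested, since domains were not assigned to genes or repeats. Domains are therefore called by position, as the lists give it, read as GRCm39 and counted from 1.

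The lists differ in length and depth, and this touches every width below. On the chromosomes used, the Day0 lists held 164237 and 164579 peaks, the Day3 lists 177334 and 176710, and the Day10 lists 380813 and 389571. The depth estimated from the authors' fold values, relative to Day0 replicate 1, was 0.997 for the other Day0 library, 1.13 and 1.11 on day 3, and 1.96 in both Day10 libraries. The estimate divides the background recovered from the fold steps by the narrowest listed width, which was 87 to 90 bases at Day0 and Day3 and 68 and 72 bases at Day10. Depth, minimum width and day cannot be told apart at Day10. Peak names hold the word lysis at Day3 and on no other day, and a difference in handling there likewise cannot be told apart from the day.

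Wide peaks were few on every day, and the members held most of those at Day0 but a minority later. At Day0, 2080 and 2111 peaks reached 1500 bases, which is 1.27% and 1.28% of each list. The Day3 lists held 3624 and 3416 such peaks (2.04% and 1.93%), and the Day10 lists 4973 and 5505 (1.31% and 1.41%). The share of wide peaks that lay in a member domain was 60.3% and 59.2% on day 0, 34.8% and 37.1% on day 3, and 25.2% and 22.8% at Day10. The number of wide peaks in members hardly varied, from 1250 to 1267 per list, as the rule asks for 1 in each. Of the other domains, 1481 were wide in both Day10 lists and in no other list, 263 in the Day3 lists alone, 36 in the Day0 lists alone, and 526 in the lists of Day3 and Day10. In 3484 domains the libraries of at least 1 day differed.

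The limit of 1500 bases cut through a continuous range of widths. Among members, 288 had a smallest width, over the 6 lists, between 1500 and 1599 bases, 310 reached 2000 bases in every list, and 33 reached 3000. Just outside, 414 domains had a smallest width between 1400 and 1499 bases. The members closest to the limit included the domain on chromosome 6 from 124639073 to 124640711, whose widest peak measured 1631 and 1595 bases on day 0, 1500 and 1508 on day 3, and 1598 and 1638 on day 10. The closest domain outside, on chromosome 10 from 71182905 to 71184909, measured 2005 and 1850 bases on day 0, 1738 and 1747 on day 3, and 1499 and 1501 on day 10. A single base in 1 library kept it out.

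Members were mostly between 2 and 3 kilobases long. Merged over the 6 lists, their length ran from 1626 to 16455 bases with a median of 2471 and quartiles of 2100 and 3140.5. There were 880 domains under 3000 bases, 68 of 5000 bases or more, and 5 of 10000 or more. Together they spanned 3.47 megabases. The bases covered by listed peaks inside a domain had a median of 2062 and 2067 on day 0, 2205 and 2194 on day 3, and 2353 and 2384 on day 10. The stretch covered in all 6 lists at once, the core, had a median of 1910 bases and made up 76.9% of the total length. The core was 90% or more of the domain in 138 cases and under 50% in 23.

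Many domains were broken into several peaks in some lists. A single peak overlapped 616 and 634 domains on day 0, 733 and 704 on day 3, and 700 and 752 on day 10. Only 255 domains, 20.9%, were a single peak in all 6 lists. The largest number of peaks in 1 domain was 13 and 14 on day 0, 14 and 17 on day 3, and 7 and 5 on day 10. Day10 lists thus held fewer pieces in the most broken domains.

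The 10 domains with the largest smallest width were chosen by the rule for naming, and they differed in how constant they were. The one on chromosome 17 from 40153831 to 40159768 was a single peak of 5936 and 5935 bases on day 0, 5934 and 5937 on day 3, and 5892 and 5907 on day 10. Its strongest peak ranked between 8 and 13 in each list by the authors' -log10 p. On chromosome 1, the domain from 24650561 to 24655321 was also a single peak throughout, with 4755 and 4759 bases on day 0, 4760 and 4757 on day 3, and 4718 and 4727 on day 10. It held the strongest peak of the chromosomes used in 5 of the 6 lists and the second strongest in Day10 replicate 1. In both domains the edges of all 6 libraries lay within 25 bases of each other, and the Day10 libraries were slightly below the others.

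The domain on chromosome 19 from 5888223 to 5899761 was the second longest of all. It was covered over 9884 and 10079 bases on day 0, 11450 and 11376 on day 3, and 11331 and 11357 on day 10, so the Day0 libraries lay below the other 4. It was listed as 3 and 4 peaks on day 0, 2 and 4 on day 3, and 1 and 2 on day 10. On chromosome 4, the domain from 94937965 to 94942790 was covered over 4448 and 4321 bases on day 0, 4768 and 4826 on day 3, and 4433 and 4312 on day 10. Here the Day3 libraries were the high ones, and those of Day0 and Day10 overlapped. On chromosome 9, peaks of the domain from 124193845 to 124200039 covered 4056 and 4006 bases on day 0, 4349 and 3863 on day 3, and 6178 and 6111 on day 10, with both Day10 libraries far above the rest.

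The domain on chromosome 6 from 125140373 to 125145176 was wider on each later day, with 4138 and 4050 covered bases on day 0, 4410 and 4550 on day 3, and 4744 and 4804 on day 10. On chromosome 8, the domain from 84926068 to 84931406 followed the same order, with 4386 and 4427, then 4860 and 4778, then 5170 and 5155 bases. The groups of 2 did not overlap in either. The other 3 changed little. On chromosome 5, the domain from 142943964 to 142950874 covered 6509 to 6834 bases, that on chromosome 8 from 27465634 to 27470301 covered 4236 to 4555, and that on chromosome 5 from 3391047 to 3394881 covered 3698 to 3819.

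**Figure D1:**
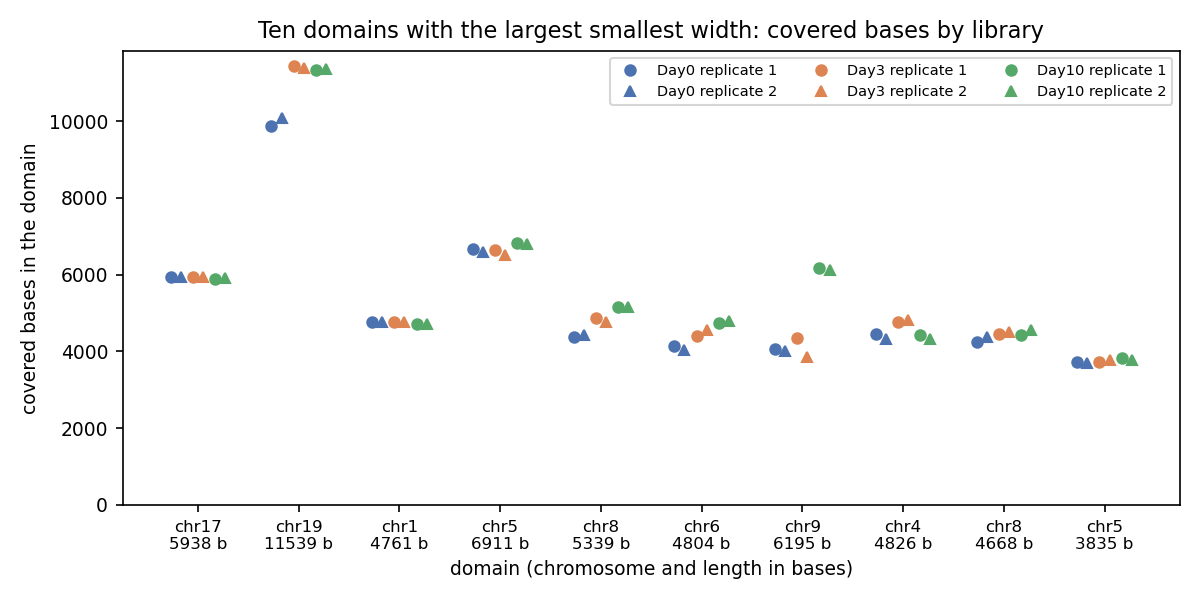
Covered bases (y axis, from 0) in each of the 6 libraries for the 10 domains with the largest smallest width (x axis, chromosome and merged length); each point is 1 library, coloured by day. The chromosome 17 and chromosome 1 domains have nearly equal values in all libraries, while the chromosome 9 domain is higher in both Day10 libraries (6178 and 6111 bases).

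Fixed edges were rare. Both outer edges lay within 50 bases in all 6 lists in 11 of the 1223 domains (0.899%), against 34 of 3995 just narrower regions (0.851%), which had a peak of 1000 bases or more in every list and held no member. Besides the chromosome 17 and chromosome 1 domains, this kind included the domains on chromosome 14 from 3049945 to 3053993 and on chromosome 2 from 22477247 to 22480601. These were picked out after their values were seen. Over all members the left edge spread by a median of 168 bases over the 6 libraries, and the right edge by 167.

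The members were then compared between days. A domain was counted as wider when its covered bases in both libraries of the later day exceeded both of the earlier day, and as narrower in the mirrored case. The same rule over the 97025 regions listed in all 6 libraries gives the background. No p-value was computed, since width is the measure of the rule, and an exact permutation test of 2 against 2 libraries cannot reach a p of 0.05.

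Against Day0, the Day10 libraries were wider in 991 of 1223 domains and narrower in 77, and overlapped with Day0 in 155. Thus 81.0% of members were wider against a background of 49.7%, and 6.3% narrower against 29.8%. The just narrower regions were in between, with 73.0% wider and 9.41% narrower. In size the change was small: the ratio of the Day10 to the Day0 mean had a median of 1.11 in members (quartiles 1.04 and 1.22), 1.11 in the just narrower regions and 1.1 in all regions listed in all 6 libraries (quartiles 0.84 and 1.48). Members thus shared the median ratio of the background with a narrower spread. In bases, the median difference was 229.5 in members and 37.5 in all regions. A ratio of 1.5 or more without overlap was found in 83 members (6.79%), a lower share than in all regions (24.2%). The narrower count was 117 without Day0 replicate 1 and 125 without Day10 replicate 2.

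This split depended on how the libraries were scaled. When each library was divided by its median ratio over the regions listed in all 6 libraries, 506 members (41.4%) were wider at Day10 than at Day0 and 431 (35.2%) narrower, beside 39.7% and 39.4% of all regions. When the library's median difference in bases was subtracted instead, an alternative chosen after the data were seen, 907 (74.2%) were wider and 125 (10.2%) narrower, beside 40.2% and 40.6% of all regions. The estimated depth, 1.96 in both Day10 libraries, moves with these widths, and its part in them was not tested.

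**Figure D2:**
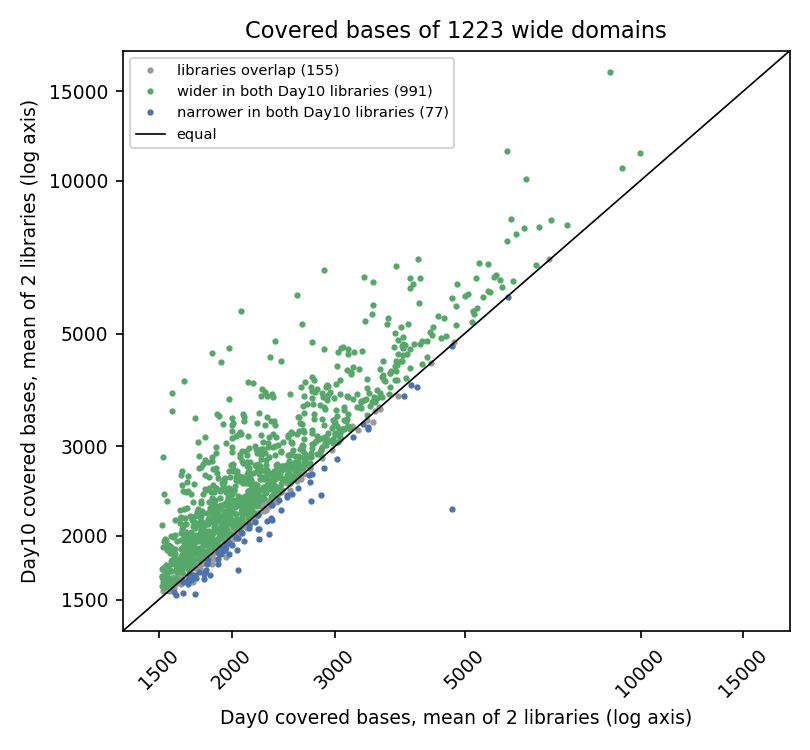
Covered bases of each of the 1223 domains at Day0 (x axis) and Day10 (y axis), as means of 2 libraries on log axes; points are domains, coloured by whether both Day10 libraries lie above both Day0 libraries (991), below them (77) or overlap (155), and the line marks equal values. Most points lie a little above the line, and 1 lies far below it.

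Day3 libraries were wider than the Day0 libraries in 808 domains (66.1%, background 43.1%) and narrower in 103 (8.42%, background 24.4%). The median difference was 119 bases and the median ratio 1.06, against 26 bases and 1.07 in all regions. This balance turned with the scaling. After division by the library's median ratio, 315 domains (25.8%, background 32.0%) were wider and 510 (41.7%, background 34.6%) narrower. After subtraction of the median difference, 707 (57.8%, background 33.5%) were wider and 161 (13.2%, background 34.0%) narrower. No direction is therefore given for Day3 against Day0. Without any 1 of the 4 libraries the narrower count lay between 160 and 179, over 1.5 times the count with all of them: 166 without Day0 replicate 1, 168 without Day0 replicate 2, 179 without Day3 replicate 1 and 160 without Day3 replicate 2. Leaving out a library removes a condition, and such counts can only rise.

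Against Day3, the Day10 libraries were wider in 723 domains (59.1%, background 40.9%) and narrower in 189 (15.5%, background 33.2%). More domains were wider than narrower under both scalings. Division gave 567 wider (46.4%, background 37.9%) and 307 narrower (25.1%, background 36.5%). Subtraction gave 678 wider (55.4%, background 37.3%) and 226 narrower (18.5%, background 37.9%). Without Day3 replicate 2 the narrower count was 285. The median difference was 108 bases with a ratio of 1.05. Across the 3 days, 455 domains (37.2%, background 17.0%) were wider at each step without overlap, and 6 (0.491%, background 7.33%) were narrower at each step. Another 205 (16.8%, background 10.2%) were wider by Day3 and then overlapped. A further 188 (15.4%, background 12.3%) overlapped between Day0 and Day3 and were wider at Day10 than at Day3. In the just narrower regions these patterns, in the order given, made up 28.4%, 1.28%, 16.2% and 17.0%. All of them use covered bases as listed, and the balance of Day3 against Day0 turned with the scaling.

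**Figure D3:**
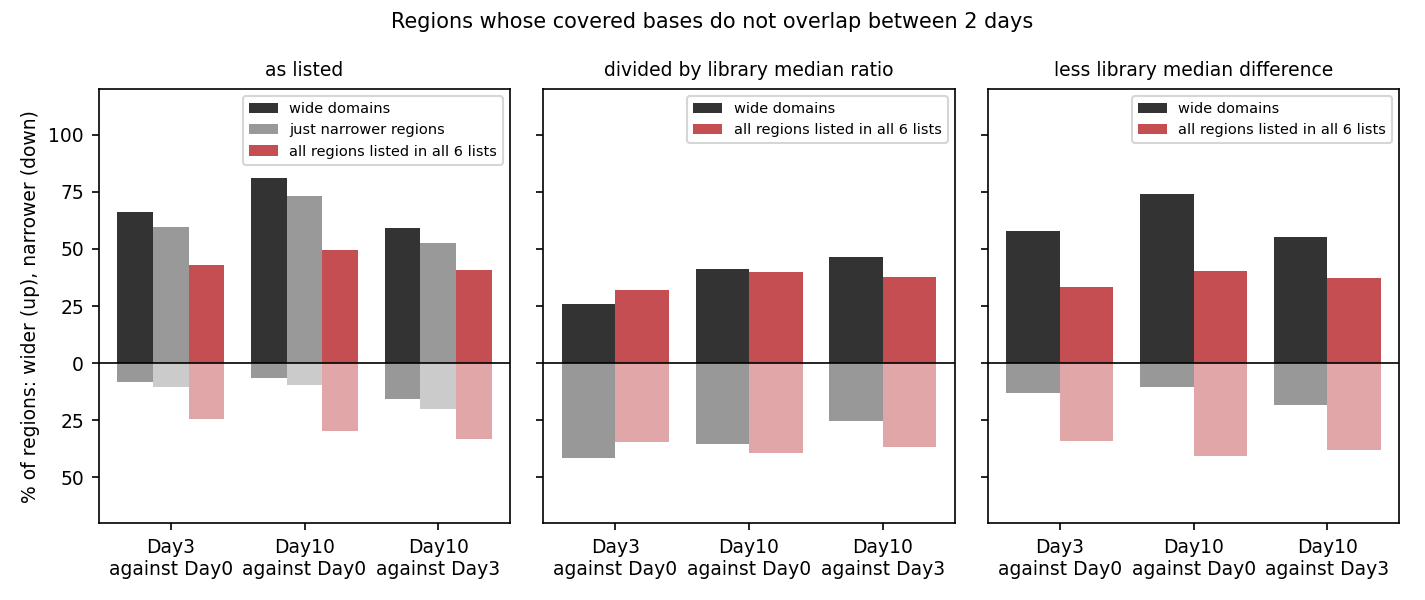
Share of regions (y axis, percent) whose covered bases in both libraries of the later day lie above (upward bars) or below (downward, paler bars) both of the earlier day, for 3 pairs of days (x axis), as listed and under 2 scalings. As listed, 81.0% of wide domains are wider at Day10 than at Day0 beside 49.7% of all regions, and after division by the median ratio the shares are 41.4% and 39.7%.

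Among regions wider at Day10, members and all regions had similar shares with an edge further out. Of the 991 wider domains, the left edge lay further out in both Day10 libraries in 759 (76.6%) and the right edge in 740 (74.7%). Among all regions listed in all 6 libraries that were wider, the shares were 76.0% and 76.6%. Both edges lay further out in 551 (55.6%, beside 55.3%), a single edge in 397 (40.1%, beside 42.1%) and neither in 43 (4.34%, beside 2.66%). Counted over all 1223 members, 62.1% were wider with the left edge further out (background 37.8%) and 60.5% with the right edge further out (background 38.1%). Those wider at both edges made up 45.1% (background 27.5%), at a single edge 32.5% (background 20.9%) and at neither 3.52% (background 1.32%). Gaps filled inside the domain made up 28.3% of the gained bases. The gain had a median of 298.5 bases with quartiles of 170.25 and 601, and reached 1000 bases in 115 of the 1223 members (9.4%, background 1.83%). Most regions of that background are short.

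Pieces also joined. In 145 domains (11.9%, background 2.6%) both Day0 lists held 2 or more peaks and both Day10 lists a single one. The opposite, a single peak at Day0 and 2 or more at Day10, was found in 69 (5.64%, background 6.61%). The just narrower regions joined in 8.44% and split in 6.56%. All regions listed in all 6 libraries are mostly short, with a median of 346 to 399 covered bases.

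Several of the longer domains also went from many peaks to few, though not to a single peak in both Day10 lists. Among them was the chromosome 10 domain from 79979273 to 79989375, with 6 and 8 peaks at Day0 and 1 and 2 at Day10. The chromosome 11 domain from 3090333 to 3098842 went from 13 and 14 peaks to 5 and 1. The 3 described in full below were picked out after their values were seen. The longest of all lay on chromosome 15 from 76070600 to 76087054. It was listed as 11 and 10 peaks over 8930 and 8805 covered bases on day 0, as 14 and 17 peaks over 11606 and 11498 bases on day 3, and as 4 and 1 peaks over 16246 and 16455 bases on day 10. The widest single peak there measured 2534 and 2569 bases at Day0 and 15237 and 16455 at Day10. The third longest, on chromosome 17 from 34242073 to 34253570, was listed as 9 and 8 peaks over 5914 and 5917 bases on day 0, 9 and 12 peaks over 8243 and 8226 bases on day 3, and 1 and 2 peaks over 11368 and 11456 bases on day 10. In both domains the covered bases of the 3 days did not overlap. On chromosome 18 the domain from 61415975 to 61426595 went from 12 peaks in each Day0 list to 6 and 7 at Day3 and 1 and 2 at Day10, with 9242 and 9372, 9915 and 9811, and 10576 and 10569 covered bases. Its strongest peak ranked between 30158 and 47480 in its lists, so a wide domain need not hold a strong summit.

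The 5 domains with the largest ratio of the nearer values, Day10 over Day0, more than doubled by that measure. First was the domain on chromosome 5 from 135035903 to 135041485, with 2028 and 2110 covered bases on day 0, 2470 and 2534 on day 3, and 5511 and 5577 on day 10. The lower Day10 value was 2.61 times the higher Day0 value, and most of the difference arose after Day3. Next, the chromosome 19 domain from 5472913 to 5477526 covered 1750 and 1941 bases on day 0, 2282 and 2095 on day 3, and 4614 and 4532 on day 10, a ratio of 2.33. A second chromosome 19 domain, from 3624433 to 3628512, covered 1734 and 1578 bases on day 0, 2264 and 2179 on day 3, and 3993 and 4080 on day 10, a ratio of 2.3.

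The remaining pair had a larger part of the difference in place by Day3. On chromosome 10, the domain from 80536738 to 80541638 covered 1995 and 1958 bases on day 0, 3267 and 3331 on day 3, and 4631 and 4733 on day 10. It was listed as 2 and 3 peaks on day 0, 9 and 8 on day 3, and 4 and 2 on day 10, with the largest number of pieces at Day3. On chromosome 5, the domain from 33375076 to 33378896 covered 1642 and 1519 bases on day 0, 2534 and 2580 on day 3, and 3821 and 3807 on day 10. Both had a ratio of 2.32.

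Few domains were narrower at Day10, and only 1 lost 1000 bases or more. On chromosome 18, the domain from 34992549 to 34997430 covered 4747 and 4779 bases on day 0, 3541 and 3516 on day 3, and 2175 and 2341 on day 10. The lower Day0 value was 2.03 times the higher Day10 value, and the 3 days did not overlap. It was listed as 3 and 2 peaks on day 0, 7 and 8 on day 3, and 1 in each Day10 list, with the largest number of pieces at Day3. Its left edges lay within 71 bases and its right edges spread over 2684.

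The next 4 narrower domains differed far less, by ratios of 1.11 to 1.16. The domain on chromosome 19 from 57597698 to 57600826 covered 2814 and 2862 bases on day 0, 2931 and 3129 on day 3, and 2422 and 2390 on day 10. A chromosome 12 domain, from 54756359 to 54758499, covered 2016 and 2081, then 1947 and 1903, then 1676 and 1752 bases. In that domain each day lay below the one before. Peaks in the chromosome 16 domain from 46316308 to 46319139 held 2720 and 2730 bases on day 0, 2731 and 2658 at Day3 and 2313 and 2377 at Day10. Last, the chromosome 9 domain from 58348646 to 58350387 held 1720 and 1737, 1661 and 1700, and 1547 and 1532 bases. There too each day lay below the one before.

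Day3 stood apart from both other days in a smaller set. Both Day3 libraries covered more bases than all 4 others in 148 domains (12.1%, background 15.8%), and fewer in 80 (6.54%, background 11.6%). Both shares are below the background. The domain on chromosome 5 from 142884664 to 142889260 was the foremost of the first kind, picked out after its values were seen. It covered 3763 and 3932 bases on day 0, 4488 and 4525 on day 3, and 3811 and 3718 on day 10. It was listed as 5 and 6 peaks on day 0, 1 and 2 on day 3, and 6 and 5 on day 10, so the fewest pieces were listed at Day3. Foremost of the second kind, also picked out afterwards, was the domain on chromosome 11 from 108158418 to 108160689. It covered 2074 and 1958 bases on day 0, 1501 and 1566 on day 3, and 2272 and 2159 on day 10.

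The next question was whether the open bases inside the domains followed the day. The Jaccard index of covered bases, the share of bases covered in both of 2 libraries among those covered in either, was 0.936 to 0.966 for libraries of the same day. It was 0.887 between Day0 and Day3, 0.876 to 0.881 between Day3 and Day10, and 0.832 to 0.836 between Day0 and Day10. The mean index of the pairing by day was 0.947, the highest of the 15 ways to pair 6 libraries, and the next was 0.914. These covered bases come from the intervals that chose the members, so the index is a description and was not tested.

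The place of the strongest summit, which the rule did not use, was tested over the same 15 pairings. Libraries of the same day placed it within 100 bases in 83.3% to 84.3% of domains. Day0 and Day3 libraries did so in 74.2% to 74.9%, Day3 and Day10 in 68.8% to 71.1%, and Day0 and Day10 in 68.8% to 71.5%. The last 2 ranges overlap. Pairing libraries by day gave a mean share of 0.838, and the nearest other pairing gave 0.776. The exact permutation test (one-sided) gave a p of 0.0667, which 15 pairings cannot go below, and 0.0667 after Benjamini-Hochberg adjustment over the tests of summits and of peaks beside the domains. In 545 domains (44.6%, background 69.3%) all 6 summits lay within 100 bases, and in 154 (12.6%, background 0.937%) some libraries placed them over 1000 bases apart. In 85 domains (6.95%, background 1.35%) the summits agreed within 100 bases within Day0 and within Day10, but lay over 500 bases apart between those days. The just narrower regions lay between, with 52.6%, 4.68% and 4.71%. A summit can move only as far as its region is long, and 64.1% of the regions of the background had a mean under 500 covered bases.

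Peaks beside the domains differed more between days than the domains did. Within 20 kb of the domain edges and outside all members, the covered bases of the 50000 strongest peaks of each library had an index of 0.806 to 0.832 within a day. The index was 0.651 to 0.655 between Day0 and Day3, 0.493 to 0.506 between Day3 and Day10, and 0.428 to 0.442 between Day0 and Day10. The pairing by day had a mean of 0.817 and the next highest 0.704, with a one-sided exact permutation p of 0.0667 (0.0667 adjusted). The members were chosen to be present in every list and the flanks were not, so the higher index inside the domains follows in part from the rule. The 2 indices also rest on different peaks, all listed ones inside and the 50000 strongest beside.

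**Figure D4:**
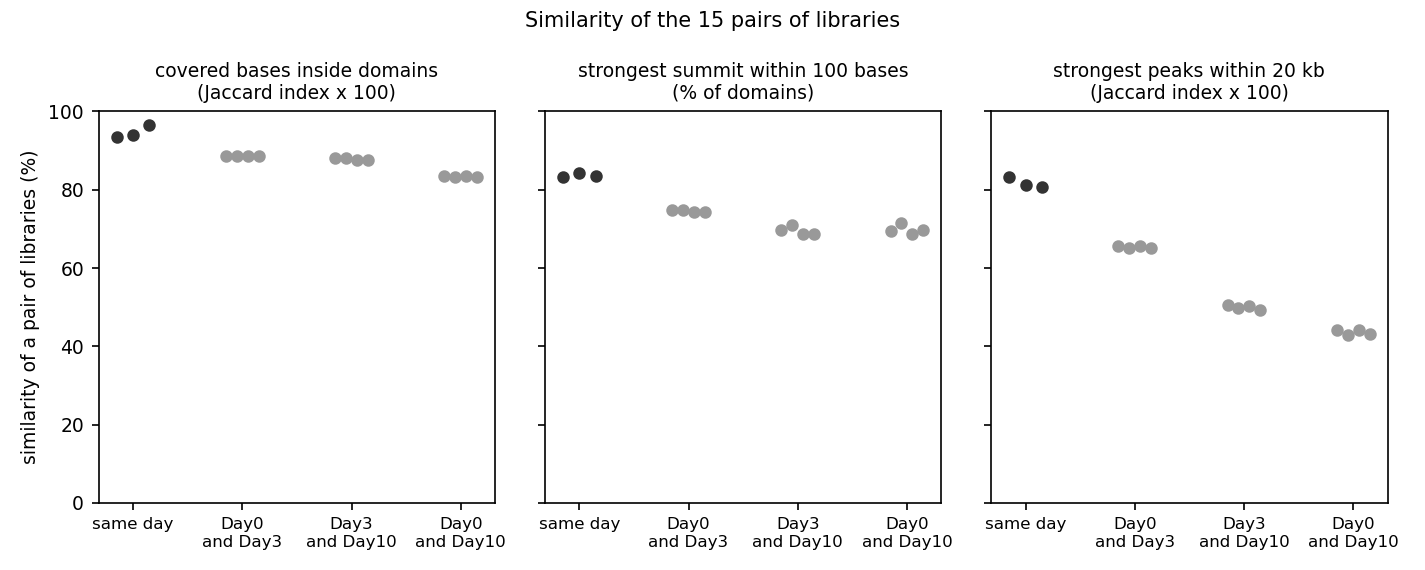
Similarity (y axis, percent) of each of the 15 pairs of libraries, grouped by whether the pair shares a day (x axis), for covered bases inside the domains, the place of the strongest summit, and the strongest peaks within 20 kb; each point is 1 pair. Pairs of the same day are highest in all 3 panels, and beside the domains the Day0 and Day10 pairs reach only 42.8% to 44.2%.

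The surroundings of the members held more of the strongest peaks than those of other regions. A member had a mean of 2.8 and 2.79 of the 50000 strongest summits within 20 kb on day 0, 2.75 and 2.73 on day 3, and 3.0 in each Day10 library. The just narrower regions had 2.34 to 2.54, and the other regions listed in all 6 libraries 2.0 to 2.09. The order was the same in every library. The flanks held more such summits in both Day10 libraries than in both Day0 libraries in 334 domains (27.3%, background 22.2%) and fewer in 261 (21.3%, background 22.6%). These differences in means between classes were not tested.

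Wide domains were not merely the strongest peaks of each list. The strongest peak of a member had a median authors' fold over background of 45.44 and 46.22 on day 0, 41.14 and 41.7 on day 3, and 38.38 and 39.04 at Day10. In the same lists the just narrower regions had 42.53 and 42.76, 38.36 and 38.92, and 35.5 and 36.25, while all peaks had medians of 5.58 to 9.9. Within each list members thus lay far above the ordinary peak and a little above the just narrower regions. The first comparison is of unlike units. Members and just narrower regions each give their strongest peak and were chosen by width and presence in every list. The medians of all peaks count every listed peak singly. Fold values are the authors' own and are not compared between lists. Members made up 16.9% to 19.5% of the 1000 strongest peaks of a list. Between 43.6% and 52.4% of members held one of the 5000 strongest peaks, and the weakest member ranked between 45381 and 68468.

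Along the genome, members were spread unevenly. Chromosome 5 held 154 (12.6% of members, and 7.25% of the regions listed in all 6 libraries), chromosome 11 held 122 (9.98% and 7.05%) and chromosome 19 held 81 (6.62% and 3.39%). Chromosome 12 held 14 (1.14% and 3.3%), chromosome 18 held 15 (1.23% and 2.69%) and chromosome X 13 (1.06% and 2.33%). Per 1000 regions listed in all 6 libraries this gave 24.6 members on chromosome 19, 21.9 on chromosome 5 and 18.9 on chromosome 17, down to 4.37 on chromosome 12. The just narrower regions leaned the same way with less contrast, with 8.79% on chromosome 5 and 2.55% on chromosome 12. The median fold of all peaks of chromosome 5 was 0.86 to 0.94 times that of the whole list, and of chromosome 12 it was 1.0 to 1.17 times. Gene content and copy number of the chromosomes were not analysed here.

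The share of members wider at Day10 than at Day0 also varied by chromosome. It was 115 of 122 (94.3%) on chromosome 11, where 57.6% of all regions listed in all 6 libraries were wider, and 10 of 25 (40.0%) on chromosome 3, where 39.5% were. On chromosome 16 it was 17 of 30 (56.7%, beside 47.8%), and on chromosome 5 it was 128 of 154 (83.1%, beside 53.5%). The difference between chromosomes was not tested.

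**Figure D5:**
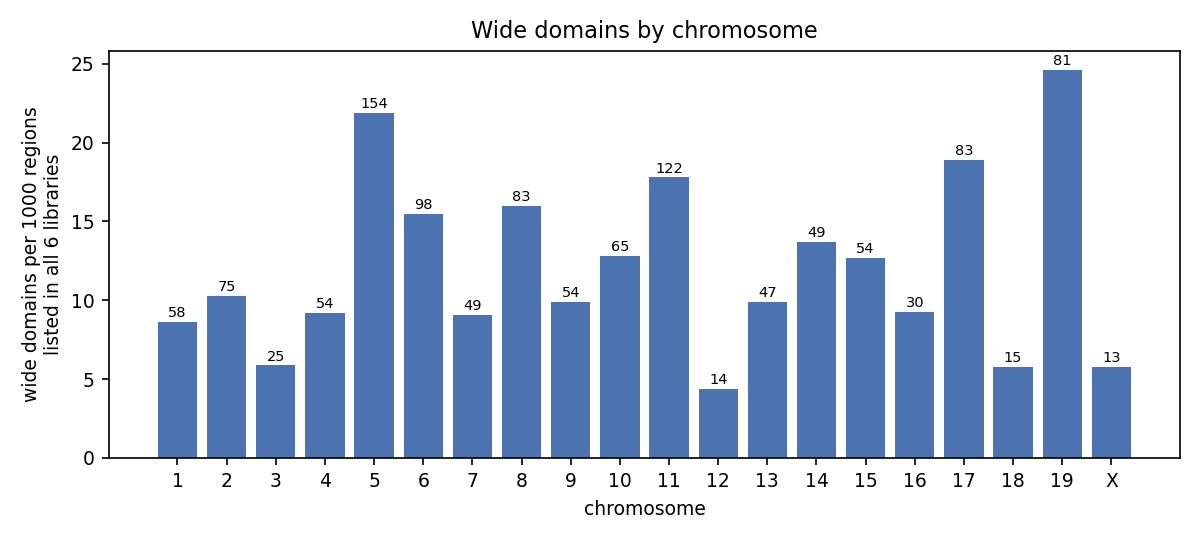
Wide domains per 1000 regions listed in all 6 libraries (y axis, from 0) for each chromosome (x axis), with the number of domains above each bar. Chromosome 19 is highest at 24.6 and chromosome 12 lowest at 4.37.

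Most members had no other member within 20 kb. The median distance to the nearest other member was 208 kilobases. Among the 3995 just narrower regions, which are more numerous, the median distance to the nearest of their kind was 78.4 kilobases. Another member lay within 20 kb for 148 domains (12.1%), which formed 69 runs, 10 of them with 3 domains and none with more. The share expected from even placement was not computed, so whether members are grouped was not tested. Among the 10 runs of 3 domains, the one with the greatest summed length lay on chromosome 17 from 28545890 to 28571097. Its domains summed to 14766 bases. A shorter run, on chromosome 11 from 98820087 to 98836902, packed 3 domains of 12612 bases in all into 16.8 kilobases.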

How the data were processed

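ATAC-seq peak lists of ATDC5 cells were used, 1 list per library, for 6 libraries grouped by the day in their titles. Per the labels' protocols, reads were single-end. Trim Galore and the build mm10 are named in the submitters' processing notes, but scaffold names in the lists belong to GRCm39. The only gene table at hand, of GRCm38.p6, belongs by its name to another build. Of its 32619 promoter windows, 0.509% overlapped a member, and 0.297% when shifted by 1 megabase. Members are too few for that share to be high on any build, so it cannot tell builds apart. For the 50000 strongest peaks of Day0 replicate 1 the shares were 4.3% and 2.75%. No coordinates were converted, and domains were not assigned to genes or sequences. Not given in the sources used here: the aligner, the peak caller and any setting. Each deposited row holds the authors' start, end, summit, integer score, fold ratio over background, -log10 p and -log10 q, each for its own list.

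From these, wide peaks were merged when they shared a base, and covered bases were counted inside each domain with Python 3.11.15, NumPy 2.4.6 and pandas 2.3.3. Peaks were ranked by -log10 p, fold and position. The background and pileup of each list were recovered from the spacing of the fold values, and pileups were whole within 0.01 in 100% of peaks. The planned pairing test of covered bases inside the domains is given as a description, because it rests on the intervals that chose the members. Counting rules were tested on simulated data. The p-values give only the rank of the pairing by day among the 15 pairings of these 6 libraries, 2 a day. They do not measure the spread between replicates. The named domains are the 10 with the largest smallest width, the 5 wider and 5 narrower at Day10 with the largest ratio of nearer values, and those next to the limit. The members, lists and rules were chosen with earlier results of these data known. The planned gene lists, gene starts and motifs need an annotation or genome of the build and were not run. Alternatives were other minimum widths, a merging gap, a stricter q, other measures and scalings of width, and each library left out. Figures were drawn with matplotlib 3.10.9.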

Additional observations from a re-analysis of the deposited data

Results flagged for a closer look

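Outside the chromosomes used, 13 further domains met the same width rule in all 6 lists, of which 12 lay on unplaced scaffolds and 1 was on the mitochondrial sequence. They were singled out as signal in data that the comparisons did not use. Scaffold names were matched after a prefix missing in 1 list was added.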

How the results depend on the processing

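Of 95 recomputed values, 67 lay within 1.5 times of the count as reported or, for the pairings, kept the pairing by day above the others. Some of them could not change, as they left out a library of a day not compared. The 3 pairing comparisons kept the pairing by day in first place under all the alternatives run for them. At a minimum width of 1000 bases there were 5218 domains, with 3198 wider and 515 narrower for Day3 against Day0, 3909 and 453 for Day10 against Day0, and 2824 and 990 for Day10 against Day3. At 2000 bases there were 310, with 216 and 22, 259 and 22, and 189 and 51. The number of domains changes there by construction, and wider domains outnumbered narrower ones in each comparison. After division by the library's median ratio the counts were 315 and 510, 506 and 431, and 567 and 307, so the balance of Day3 against Day0 turned. After subtraction of the library's median difference, chosen after seeing the data, narrower domains numbered 161, 125 and 226. The cause was not tested. Shares of all regions under both scalings are given with each comparison above.

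With 1 library left out, the number of domains ranged from 1253 to 1407. Counted over the 1223 members, wider domains ranged from 808 to 924, 991 to 1054 and 723 to 832 in the 3 comparisons. Narrower ones ranged from 103 to 179, 77 to 125 and 189 to 285. The lowest value of each range is the count with all libraries, as leaving out a library of the day not compared changes nothing. For Day10 against Day0 the narrower count was 117 without Day0 replicate 1 and 125 without Day10 replicate 2, and for Day10 against Day3 it was 285 without Day3 replicate 2. Each comparison uses only the libraries of the days compared. No paired analysis was possible because the counts come from no test and the pairing comparisons set whole libraries side by side. The share of domains with a gene start was not run, for lack of an annotation of the build. Depth, estimated at 1.96 times Day0 replicate 1 in both Day10 libraries, limits any reading of the widths, and its part was not tested.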
